A study of Mus musculus with 6 samples.

Results

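Ion channel genes named for potassium (Kcn), calcium (Cacna, Cacnb, Cacng), sodium (Scn) and HCN channels were followed in cells labelled HL-1, a line derived from an atrial muscle tumour of the mouse. A search on gene symbols selected 138 of the 21959 genes in the deposited count table. The names also take in potassium channels that are not opened by voltage, namely inward rectifiers, tandem-pore channels and calcium-activated channels, and 1 regulator, Kcnrg. The group of OGD/R with phillyrin (3 libraries) came from cells given phillyrin, a plant lignan glycoside found in Forsythia, at 50 µg/mL for 8 h before and 16 h during oxygen-glucose deprivation and reoxygenation (OGD/R). The OGD/R group (3 libraries) had the deprivation and reoxygenation without it. Both groups are labelled wild type and were grown in Claycomb medium with norepinephrine, and both had 4 h of hypoxia without glucose and 24 h of reoxygenation. How the 16 h fall within those times is not given. Cells without OGD/R and cells given a vehicle were not analysed here, so a drug effect and a solvent effect cannot be told apart.

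Voltage-gated sodium, calcium and potassium channels open when the membrane depolarizes. Sodium channels carry the upstroke of the muscle action potential, calcium channels couple it to contraction, and potassium channels bring the membrane back to rest. Most consist of a large pore subunit joined by smaller auxiliary subunits that set its surface level and gating. In an atrial muscle cell the main pores are a sodium channel, the L-type calcium channels Cacna1c and Cacna1d, and a set of repolarizing potassium channels.

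The libraries held between 14761317 and 22123648 counts. A gene without a count in any library lies below 0.0269 CPM (counts per 1000000 counts of the scaled library total), the limit set by 3 counts over the 6 libraries, which covers counting error alone. Of 10 atrial cardiomyocyte markers 8 were under 0.5 CPM in every library, and Actn2, Myh6 and Sln were at 0. Nkx2-5 and Myl4 were expressed, at means of 2.85 and 1.64 CPM. Atrial markers together summed to 4.52 to 5.8 CPM with phillyrin and 3.67 to 5.16 CPM with OGD/R. Of 10 skeletal myoblast markers 6 averaged 1 CPM or more, with sums of 587 to 621 CPM with phillyrin and 670 to 691 CPM with OGD/R. Chrna1 was the highest of them, at a mean of 288 CPM, while Myog, Myf6, Mymk and Chrng averaged under 1 CPM. The name HL-1 is taken from the label alone and is not borne out by these markers. These are bulk libraries, in which fewer cells of a type and less RNA per cell cannot be told apart. Whether replicates were grown as separate cultures is not labelled, so p-values rest on a spread that may be technical.

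Most channel genes had few or no counts. Over the 6 libraries 51 of the 138 had no count, 35 had 1 to 10 counts, 32 had more but averaged under 1 CPM, and 20 averaged 1 CPM or more and are called expressed here. At the edge of that limit stood Cacna1b at a mean of 1.00 CPM and Kcnn1 at 1.03 CPM inside it, and Kcnip4 at 0.857 CPM and Scn10a at 0.840 CPM outside. Channel genes took between 0.0473% and 0.0515% of the counts in the phillyrin libraries and between 0.0530% and 0.0549% in the OGD/R libraries.

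**Figure D1:**
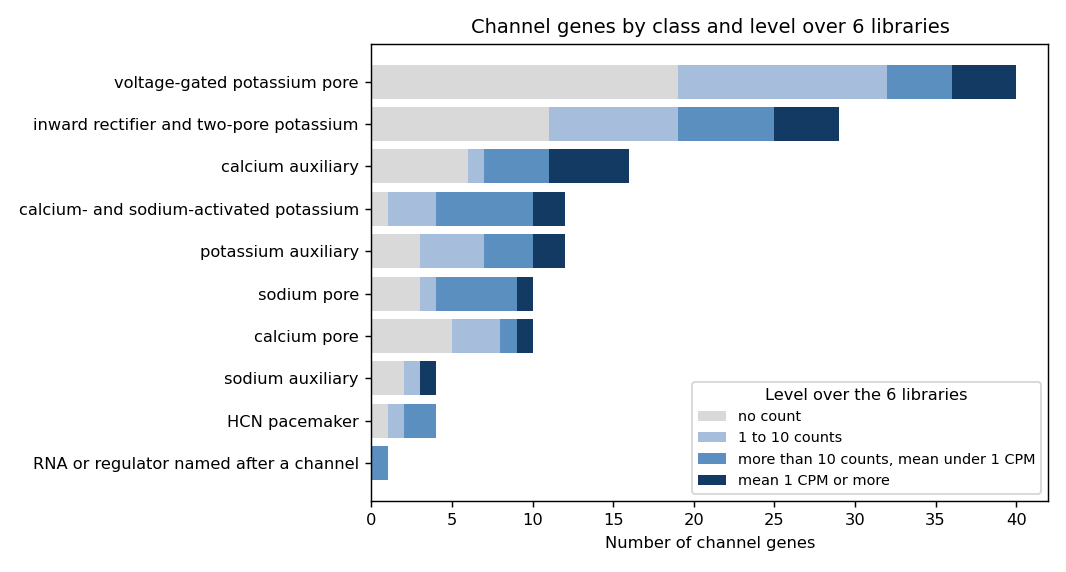
Number of channel genes in each class (horizontal axis), split by how much was detected over the 6 libraries. Voltage-gated potassium pores formed the largest class, with 40 genes, of which 19 had no count and 4 averaged 1 CPM or more, whereas 5 of 16 calcium auxiliary subunits did.

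Calcium channel auxiliary subunits were the most abundant class per transcript length, while calcium pore subunits were close to absent. In FPKM, the deposited values scaled to gene length and library total, the 16 auxiliary genes together reached 84.5 ± 5.61 with phillyrin and 90.0 ± 1.08 with OGD/R (SD, n = 3 each), 71.9% of the FPKM of all 138 genes. The 10 pore genes together reached 0.155 ± 0.0336 FPKM with phillyrin and 0.132 ± 0.0186 FPKM with OGD/R (SD, n = 3 each), 0.118% of the total. Cacng1 (ENSMUSG00000020722, chromosome 11, 107594044 to 107607348, GRCm39), the gamma subunit of the skeletal muscle L-type channel, had the highest level of any member. It had 47.6, 48.0 and 41.0 FPKM in the phillyrin libraries and 50.7, 49.2 and 50.2 FPKM in the OGD/R libraries. Cacnb3 (ENSMUSG00000003352, chromosome 15, 98528721 to 98542410), a cytosolic beta subunit known from brain and smooth muscle, had 20.3, 21.0 and 18.9 FPKM with phillyrin and 21.0, 21.0 and 20.8 FPKM with OGD/R. Cacna2d1 (ENSMUSG00000040118, chromosome 5, 16139689 to 16579509), the extracellular alpha2-delta subunit that binds gabapentin, had 17.0, 15.6 and 15.5 FPKM with phillyrin and 16.4, 16.4 and 15.3 FPKM with OGD/R. These 3 genes differed from each other beyond the range of their 6 libraries. Cacnb1, the beta subunit of the skeletal muscle channel, stood lower, at 2.60 ± 0.295 FPKM with phillyrin and 2.51 ± 0.264 FPKM with OGD/R (SD, n = 3 each).

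The pores that these subunits serve in muscle were missing or nearly so. Cacna1s, the skeletal muscle L-type pore and voltage sensor, had 2 counts over the 6 libraries, and Cacna1d, the L-type pore of pacemaker and atrial cells, had 2. Cacna1c, the main cardiac L-type pore, had 0, and so did the T-type pores Cacna1g, Cacna1h and Cacna1i. The pore gene with the highest level was Cacna1b, the N-type channel of nerve terminals, at 0.108 ± 0.0352 FPKM with phillyrin and 0.0928 ± 0.0233 FPKM with OGD/R (SD, n = 3 each). Cacna1a, the P/Q-type channel, had 29 counts in the phillyrin libraries together and 25 in the OGD/R libraries.

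Sodium channel genes are described here for the members with few counts. Scn4a, the pore of adult skeletal muscle, had 11 counts over the 6 libraries. Scn10a, known from sensory neurons, had 0.585, 0.594 and 0.835 CPM in the phillyrin libraries and 0.973, 1.11 and 0.947 CPM in the OGD/R libraries. All of its phillyrin values lay below the OGD/R ones, and it missed the threshold of the test described further on (edgeR adjusted p = 0.233). Scn3a, Scn8a and Scn11a, pores of neurons, and the beta subunits Scn2b and Scn3b had no count.

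Potassium channels were led by Kcnn4 (ENSMUSG00000054342, chromosome 7, 24069688 to 24086115), the intermediate-conductance channel that opens on cytosolic calcium and not on voltage. Its mean of 12.9 FPKM over the 6 libraries was followed by Kcnf1, a silent subunit that forms no current of its own and modifies other pores, at 4.12 FPKM. Next came the tandem-pore leak channels Kcnk2, which responds to stretch and lipids, at 2.96 FPKM, and Kcnk5, which opens at alkaline pH, at 2.68 FPKM. From Kcnf1 to Cacnb1, each gene overlapped the next in the range of its 6 libraries. Kcnj12, a strong inward rectifier of muscle, stood at 1.23 FPKM, the tandem-pore gene Kcnk12 at 1.18 FPKM and Kcnc2, a fast delayed rectifier, at 0.917 FPKM. The cytosolic beta subunit gene Kcnab3 stood at 1.56 FPKM. Kcnh2 (the rapid delayed rectifier of the heart), Kcnab2 and Kcnn1 were expressed at between 0.224 and 0.309 FPKM. Between them in FPKM, but under 1 CPM, stood the tandem-pore family gene Kcnk7 at 0.285 FPKM and Kcnrg, whose product can block the assembly of potassium pores, at 0.265 FPKM. Kcnab2 overlaps Nphp4 on the other strand over 1205 bases, and Kcnip4 overlaps 5730480H06Rik over 24793 bases. The gene 5730480H06Rik averaged 17.1 CPM with phillyrin and 16.3 CPM with OGD/R. Reads from the shared stretch of such a pair cannot be told apart without strand.

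Most genes of heart muscle currents were undetected or low. Of 28 genes listed for heart currents 12 had no count and 21 were under 0.5 CPM in every library. The transient outward pores Kcnd2 and Kcnd3, the ultrarapid pore Kcna5, the pore Kcnj11 of the ATP-sensitive channel and the beta subunit Kcne1 had no count. Kcnq1, the slow delayed rectifier, had 1 count over the 6 libraries, and Kcnj3, a pore of the acetylcholine-activated channel, had 3 while its partner Kcnj5 had 0. Kcnj2, the main resting inward rectifier, had 14. Cacna2d1, Kcnj12, Kcnh2 and Cacnb2 were among the 6 genes of that list that were expressed. Of 14 genes listed for skeletal muscle currents 9 were under 0.5 CPM in every library, and Cacng1, Cacna2d1 and Cacnb1 were among those expressed. In the HCN family, which carries the pacemaker current, Hcn4 had 2 counts and Hcn2 stood at 0.843 ± 0.440 CPM with phillyrin and 0.679 ± 0.223 CPM with OGD/R (SD, n = 3 each).

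**Figure D2:**
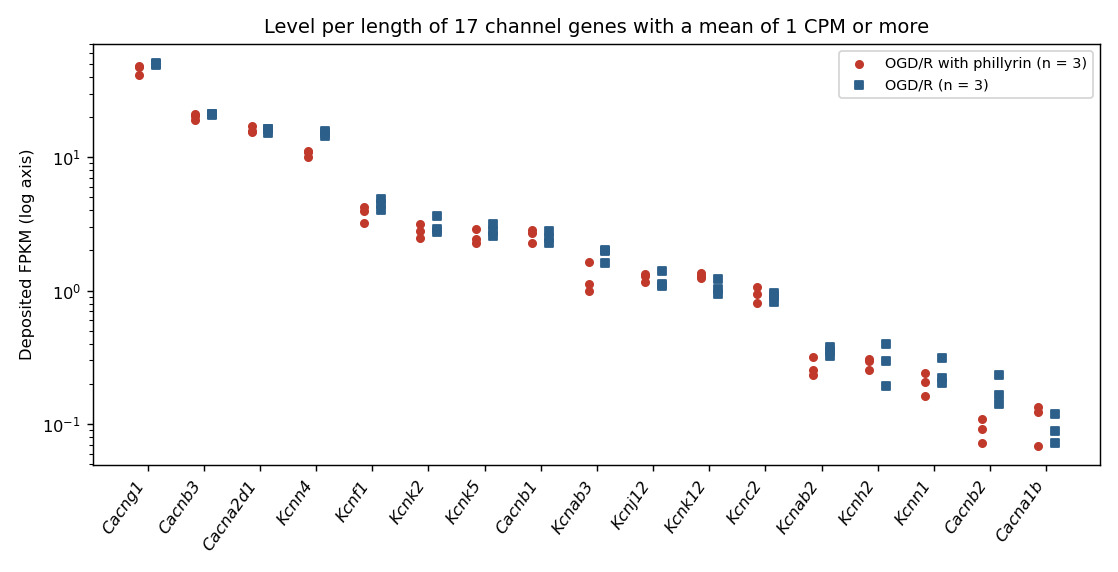
Deposited FPKM (log axis) of 17 of the 20 expressed channel genes, in order of their mean, with a point for each of the 3 libraries with phillyrin (circles) and the 3 libraries with OGD/R (squares). Cacng1 stood at 41.0 to 50.7 FPKM, and Cacna1b, the only expressed calcium pore, at 0.0681 to 0.134 FPKM.

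Neighbouring channel genes differed widely in level. With gaps of at most 500 kb, 55 of the 138 genes fell into 23 clusters. On chromosome 11 Cacng1, at 47.8 FPKM, was followed by Cacng4 at 0.0885 FPKM and Cacng5 at 0, genes better known for AMPA receptor regulation. On chromosome 14 Kcnk5, at 2.68 FPKM, lay beside its relative Kcnk16 at 0. On chromosome 2 Scn7a, Scn9a and Scn1a followed each other at 0.0747, 0.0383 and 0.00135 FPKM. The Shaker-type clusters Kcna1, Kcna5 and Kcna6 on chromosome 6 and Kcna2 and Kcna10 on chromosome 3 had no count, while Kcna3, on chromosome 3 beside Kcna2, had 18 counts.

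With phillyrin, 4 channel genes fell and none rose against OGD/R alone. They were Kcnn4, Scn7a, Cacnb2 and Kcnab3, 4 of the 30 channel genes with enough counts to test (13.3%, edgeR quasi-likelihood test, Benjamini-Hochberg adjusted p under 0.05 over 11658 genes). Over all genes tested 31.7% were called, 16.0% higher and 15.6% lower. The channel genes were far less abundant than other tested genes, with a median of 1.68 CPM against 34.2 CPM over all, and the median standard error of their log2 fold change was 0.30 against 0.07. The called share of all tested genes was 9.06% for genes under 1 CPM, 17.0% from 1 to under 10 CPM, 31.4% from 10 to under 100 CPM and 51.1% from 100 CPM. In the same ranges 1 of 10, 2 of 12, 1 of 7 and 0 of 1 channel genes were called. Of the 30, 12 had a positive and 18 a negative log2 fold change, with a median of -0.09 beside -0.01 over all genes tested. The groups did not overlap for 6 of the 30, 5 lower and 1 higher, where 43.1% of all tested genes did not overlap. At an unadjusted p under 0.05 edgeR gave 5 channel genes, of which 0 were higher. DESeq2 called 0 higher as well, and limma-voom called 1, Kcnma1.

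**Figure D3:**
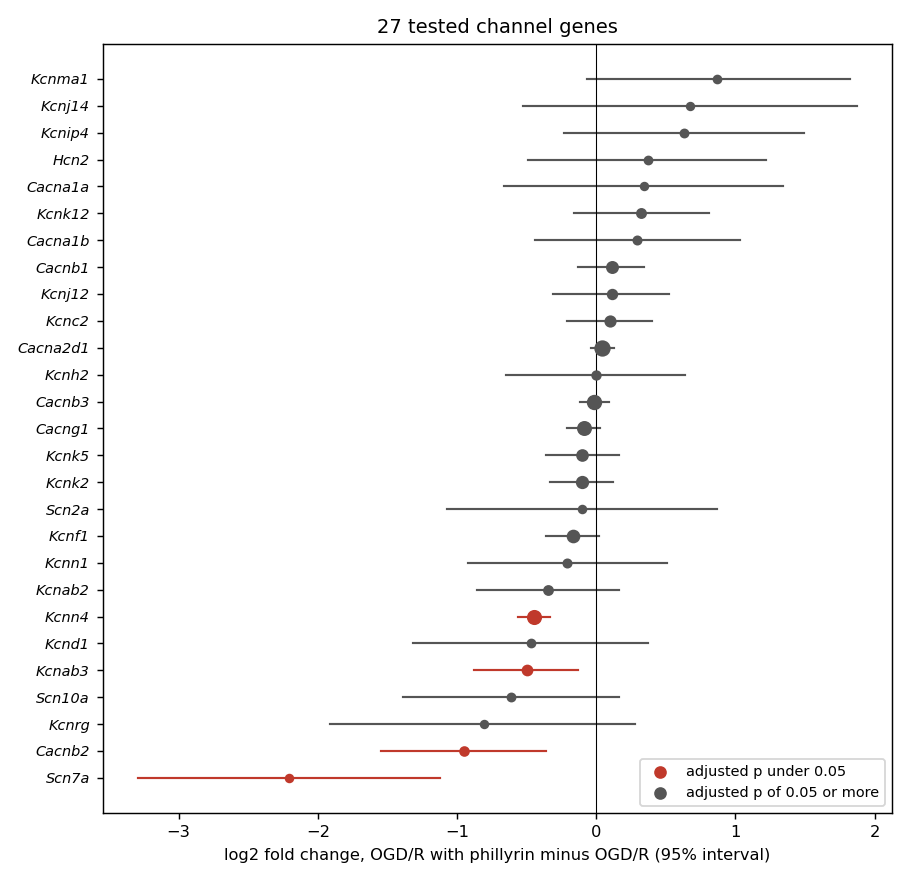
The log2 fold change of OGD/R with phillyrin minus OGD/R for 27 of the 30 tested channel genes (points, larger for more abundant genes) with its 95% interval (lines). The 4 called genes, from Kcnn4 at -0.45 to Scn7a at -2.21, lie left of 0, and the intervals of abundant genes such as Cacna2d1 are the shortest.

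Kcnn4 was the called gene with the most counts. It had 57.4, 56.7 and 53.1 CPM in the phillyrin libraries, against 79.0, 72.1 and 77.4 CPM in the OGD/R libraries, so the groups stood clear of each other. The fitted level was 0.733 times that of OGD/R, or -0.45 on the log2 scale with a standard error (SE) of 0.06 and an adjusted p of 5.81e-08 in edgeR. Its call held in the 13 other fits in which it had a value without a fold minimum, among them DESeq2, limma-voom and the omission of each library in turn. Kcnn4 is known from proliferating and non-excitable cells, in which it keeps the membrane negative while calcium enters.

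Scn7a (ENSMUSG00000034810, chromosome 2, 66503769 to 66615258), an atypical member of the sodium channel family that senses extracellular sodium, was called on few counts. It had 3, 3 and 4 counts in the phillyrin libraries, against 18, 22 and 12 counts in the OGD/R libraries. In CPM these were 0.175, 0.137 and 0.278 with phillyrin and 0.973, 1.06 and 0.631 with OGD/R, with no overlap. The log2 fold change was -2.21 (SE 0.54, edgeR adjusted p = 0.00151), and its 95% interval ran from -3.29 to -1.12. Its mean of 0.543 CPM keeps it outside the expressed genes, and DESeq2 gave it no adjusted p-value (unadjusted p = 0.00100).

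Cacnb2 (ENSMUSG00000057914, chromosome 2, 14607899 to 14992719), the main beta subunit of the cardiac L-type channel, had 1.46, 0.959 and 1.25 CPM in the phillyrin libraries, against 2.16, 1.83 and 3.05 CPM in the OGD/R libraries. The groups did not overlap, and OGD/R replicate 3 stood highest. The log2 fold change was -0.95 (SE 0.29, edgeR adjusted p = 0.0115). Leaving out OGD/R replicate 3 or phillyrin replicate 2 ended the call, at adjusted p-values of 0.112 and 0.0803 in edgeR.

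Kcnab3 (ENSMUSG00000018470, chromosome 11, 69217084 to 69223868), a cytosolic beta subunit of Shaker-type channels, had 3.27, 4.70 and 2.92 CPM with phillyrin and 5.57, 5.64 and 4.58 CPM with OGD/R. Phillyrin replicate 2 lay within the OGD/R range. The log2 fold change was -0.50 (SE 0.19, edgeR adjusted p = 0.0354). It was no longer past the threshold with DESeq2 (adjusted p = 0.0713), nor in edgeR without phillyrin replicate 1 (adjusted p = 0.129) or 3 (0.154), or without OGD/R replicate 1 (0.103) or 2 (0.132). The pores it binds, Kcna1 to Kcna7 and Kcna10, summed to 21 counts over the 6 libraries, 18 of them from Kcna3.

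**Figure D4:**
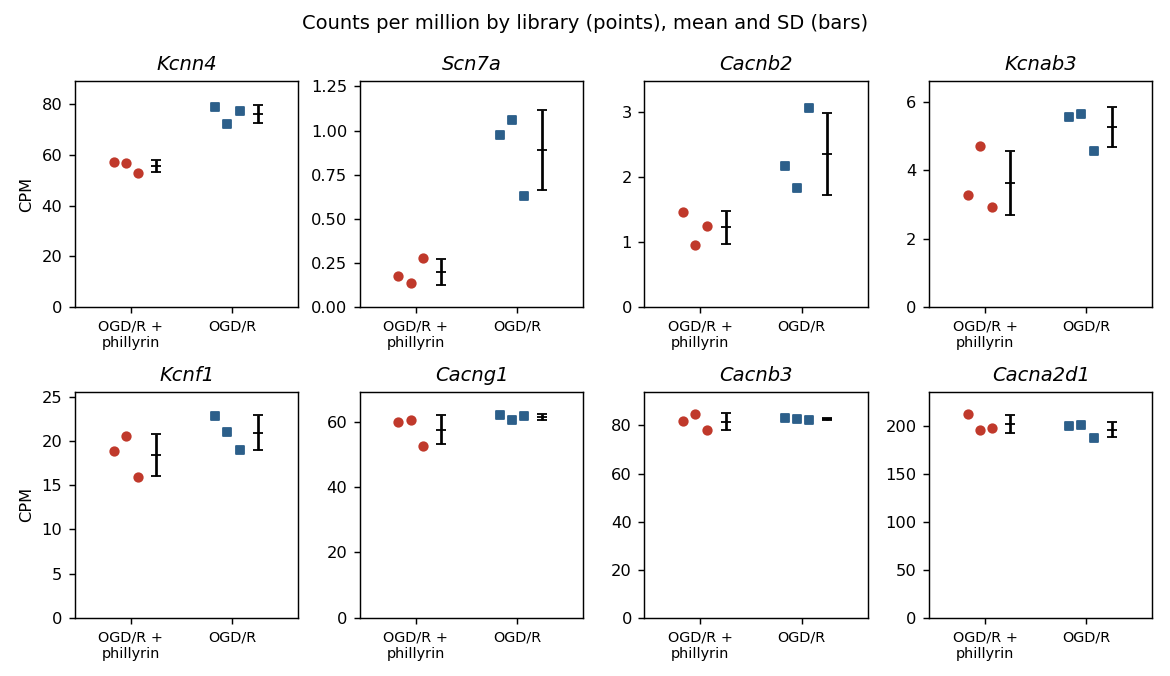
CPM by library for 8 channel genes, the 4 called ones in the upper row and 4 abundant ones that did not pass in the lower row, with phillyrin left and OGD/R right. Points are libraries and bars the mean with SD (n = 3 each); Kcnn4 stands at 53.1 to 57.4 CPM with phillyrin and 72.1 to 79.0 CPM with OGD/R.

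Promoter windows of genes that fell are shown because their transcripts would start there. RefSeq windows of build GRCm38.p6, from 250 bases before to 50 after a start site, were found for Kcnn4 (chr7:24370013-24370312, plus strand), Scn7a (chr2:66784861-66785160, minus strand) and both start sites of Cacnb2 (chr2:14604056-14604355 and chr2:14823842-14824141, plus strand), and for 101 of the 138 channel genes. Capitals mark CANNTG, the E-box read by muscle regulatory and other helix-loop-helix factors, which was searched on both strands and reads the same on each.
Kcnn4: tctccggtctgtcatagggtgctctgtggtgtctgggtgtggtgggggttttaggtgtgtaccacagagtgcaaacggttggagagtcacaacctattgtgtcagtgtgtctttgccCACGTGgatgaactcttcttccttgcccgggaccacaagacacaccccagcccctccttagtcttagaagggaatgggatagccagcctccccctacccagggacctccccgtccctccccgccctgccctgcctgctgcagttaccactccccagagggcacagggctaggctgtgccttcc
Scn7a: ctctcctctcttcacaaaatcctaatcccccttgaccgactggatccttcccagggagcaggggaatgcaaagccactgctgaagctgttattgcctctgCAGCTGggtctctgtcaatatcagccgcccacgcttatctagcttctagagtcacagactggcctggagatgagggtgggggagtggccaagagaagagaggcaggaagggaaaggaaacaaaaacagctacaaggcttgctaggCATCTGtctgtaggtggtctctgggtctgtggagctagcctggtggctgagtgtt
Cacnb2, first start: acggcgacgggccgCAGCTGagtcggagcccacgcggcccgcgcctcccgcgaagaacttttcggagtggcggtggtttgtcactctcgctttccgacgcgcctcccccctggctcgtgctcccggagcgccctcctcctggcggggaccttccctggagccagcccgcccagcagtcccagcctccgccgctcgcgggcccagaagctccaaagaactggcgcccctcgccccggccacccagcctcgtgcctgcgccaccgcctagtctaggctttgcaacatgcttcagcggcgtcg
Cacnb2, second start: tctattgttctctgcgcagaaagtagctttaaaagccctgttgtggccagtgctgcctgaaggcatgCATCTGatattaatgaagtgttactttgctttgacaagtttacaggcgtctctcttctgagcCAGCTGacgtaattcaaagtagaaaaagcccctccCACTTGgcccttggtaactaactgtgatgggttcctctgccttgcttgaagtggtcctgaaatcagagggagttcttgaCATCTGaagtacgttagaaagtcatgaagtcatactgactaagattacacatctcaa
Each window held at least 1 such match, as did 72.1% of the 27025 genes' promoters searched (the first listed start of each). The form CAGCTG, contained in CANNTG, was found in the Scn7a window and both Cacnb2 windows and not in that of Kcnn4, whose match was CACGTG, and in 16.1% of all promoters. The AP-1 site TGANTCA and the TATA box TATAAA, searched on both strands, were in none of the 4 windows and in 7.93% and 14.2% of all promoters. The GC box GGGCGG was in the windows of Kcnn4, Scn7a and the first Cacnb2 start, and in 35.9% of all. The first Cacnb2 window was 71.7% G and C with 35 CG pairs, where the median promoter had 52.7% and 7, and the Kcnn4 and Scn7a windows had 59.7% and 54.0% with 6 and 3 pairs. A match describes the letters and is no evidence of binding. Which Cacnb2 start these cells use is not known from gene counts.

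The abundant calcium channel subunits gave the narrowest estimates. Cacna2d1 had 213, 196 and 198 CPM with phillyrin and 200, 201 and 187 CPM with OGD/R. Its log2 fold change was 0.04, with a 95% interval from -0.04 to 0.13 (edgeR adjusted p = 0.437). Cacnb3 stood at 81.6 ± 3.53 CPM with phillyrin and 82.6 ± 0.442 CPM with OGD/R (SD, n = 3 each). Its log2 fold change was -0.02, with an interval from -0.12 to 0.09. Cacng1 had 60.0, 60.5 and 52.5 CPM with phillyrin and 62.3, 60.6 and 61.9 CPM with OGD/R. All of its phillyrin values lay below the OGD/R ones, 1 of them by little, and the log2 fold change of -0.09 had an interval from -0.21 to 0.03. Cacnb1 had a log2 fold change of 0.11 with an interval from -0.13 to 0.34.

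Kcnf1, the silent potassium subunit, averaged 18.5 ± 2.41 CPM with phillyrin and 21.0 ± 1.94 CPM with OGD/R (SD, n = 3 each), and its log2 fold change of -0.17 had an interval from -0.36 to 0.02. For Kcnk2 and Kcnk5 the log2 fold changes were -0.10 each, with intervals from -0.33 to 0.12 and from -0.36 to 0.16. Of the 30 tested members, the tandem-pore gene Kcnk12 was the 1 whose phillyrin values all lay above those of OGD/R, at 2.69, 2.56 and 2.50 CPM with phillyrin and 2.00, 1.83 and 2.37 CPM with OGD/R, and it missed the threshold (edgeR adjusted p = 0.324).

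Kcnma1, the large-conductance calcium-activated potassium channel, changed its call with the fit. It had 0.877, 1.05 and 0.765 CPM with phillyrin and 0.324, 0.964 and 0.158 CPM with OGD/R, where OGD/R replicate 2 stood with the phillyrin libraries. The log2 fold change was 0.87 (SE 0.47, edgeR adjusted p = 0.154), but 1.90 without OGD/R replicate 2 (edgeR adjusted p = 0.0167), and limma-voom gave an adjusted p of 0.0451. The other low members had wide intervals, such as Hcn2 from -0.49 to 1.22 and Kcnh2 from -0.65 to 0.64, too wide to show a small difference at this depth.

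Genes that anchor, modulate or complement these channels changed in both directions. Of 66 such partner genes 41 were tested, 8 rose and 13 fell (51.2% called, beside 31.7% of all genes), with a median log2 fold change of -0.04. Scaled by library size alone 4 rose and 13 fell. Without OGD/R replicate 2, 5 rose, and without OGD/R replicate 3, 7 fell. Gja1, a connexin gene, rose to 363 ± 1.99 CPM with phillyrin, against 284 ± 10.4 CPM with OGD/R (SD, n = 3 each). Its log2 fold change was 0.35 (SE 0.04, edgeR adjusted p = 4.68e-10). Calm2, a calmodulin gene whose product is bound by Kcnn4 and by calcium pores, and Dlg1, a scaffold that anchors potassium channels, each had a log2 fold change of 0.33. Rem1, a small GTPase that binds calcium channel beta subunits and inhibits the current, fell to 44.0 ± 2.53 CPM with phillyrin, against 60.7 ± 1.69 CPM with OGD/R (SD, n = 3 each; edgeR adjusted p = 1.28e-07). Ryr1, the calcium release channel of skeletal muscle, fell to 4.10 ± 0.326 CPM with phillyrin, against 7.46 ± 0.627 CPM with OGD/R (SD, n = 3 each). The sodium pump subunit gene Atp1b1, with Nme7 on the opposite strand, had a log2 fold change of -0.60, and Ank3, the ankyrin that anchors sodium channels, of -0.33. The share called among partner genes and among channel genes was not compared by a test, and the partner genes are mostly far more abundant.

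Markers of cell types other than that of the label also differed between the groups. Of 10 skeletal myoblast markers 8 were tested, 1 rose and 5 fell, and their summed level was 587 to 621 CPM with phillyrin and 670 to 691 CPM with OGD/R. Of 7 fibroblast markers 5 were tested and 3 fell, with sums of 1800 to 1950 CPM with phillyrin and 2280 to 2320 CPM with OGD/R, and Lum at 0. Of 5 vascular smooth muscle markers 2 were tested and both rose, with sums of 613 to 666 CPM with phillyrin and 442 to 465 CPM with OGD/R. Nearly all of those sums came from the 2 tested genes. Myh11, Tagln and Cnn1 had 10, 16 and 42 counts over the 6 libraries. Of 7 neuron markers 4 were tested and 3 rose, with sums of 416 to 449 CPM with phillyrin and 345 to 362 CPM with OGD/R. The neuron sums came from the 4 tested genes, while Rbfox3, Snap25 and Syt1 had 1, 1 and 2 counts over the 6 libraries. Endothelial markers summed to at most 1.34 CPM in any library, with Kdr at 0, and macrophage markers to at most 4.24 CPM, with Adgre1 and Itgam at 0. Their part in the lower level of the 4 channel genes was not tested.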

How the data were processed

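Libraries were made from mRNA enriched on poly-T beads, per the labels' protocols. The submitters' processing notes name DESeq2 1.34.0, featureCounts 2.0.3, HISAT2 2.2.1, Trimmomatic 0.39 and build GRCm39. Annotation release, strand setting and the handling of multiply aligned reads are not given in these sources. The authors deposited raw counts and FPKM. FPKM values matched counts over gene length and total to within a relative difference of 2.43e-07. FPKM was used to compare levels between genes, and counts were used for tests.

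Columns were assigned by sample title. Genes were filtered with filterByExpr by group, scaled by TMM factors and fitted with edgeR 4.0.16 in R 4.3.3 (quasi-likelihood, robust), over 11658 genes, two-sided, with Benjamini-Hochberg adjustment, a threshold of 0.05 and no covariate, both groups having the same batch label. CPM used TMM-scaled library totals. Standard errors were derived from the log2 fold change and its F statistic, and 95% intervals from them. On counts simulated for these 11658 genes and this comparison, with 200 changed, 44% of genes changed 1.2-fold, 86.0% changed 1.5-fold, 88.0% changed 2-fold and 100% changed 3-fold were recovered, and 6 of 165 calls were false. The changed genes were drawn at random from all tested genes, whose median level was 34.2 CPM. Tested channel genes had a median of 1.68 CPM and larger standard errors, so these shares do not describe them.

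The alternatives were RLE factors, library size alone, DESeq2 1.42.0, limma-voom (limma 3.58.1), 2 other low-count filters, the omission of each library, the replicate number as a block and glmTreat against a fold of 1.5. Other CPM limits were tried for the count of expressed genes. Members, lists and tests were chosen with earlier results of these data known. Named were the called channel genes, the 20 highest by FPKM, the leading expressed gene of each family, genes listed for heart and skeletal currents, and the 8 partner genes with the smallest p-values. Other genes were named after their values were seen. A few of the genes this takes in are left unreported.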

Additional observations from a re-analysis of the deposited data

How the results depend on the processing

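The number of expressed channel genes, 20, was 19 or 20 under other scalings and with any library left out, 28 at a limit of 0.5 CPM, 14 at 2 CPM and 16 when 1 CPM was required in every library. Of the called channel genes, 0 higher and 4 lower, DESeq2 kept 2 lower ones, Kcnn4 and Cacnb2, and gave no adjusted p for Scn7a. limma-voom called 1 higher. With a library left out, 3 were lower each time and 0 to 1 higher, the higher one being Kcnma1 without OGD/R replicate 2. With glmTreat against a fold of 1.5 there were 0, and 2 at an unadjusted p under 0.05, Cacnb2 and Scn7a. Of the partner genes, 8 higher and 13 lower, library size alone left 4 higher, and with a library left out 5 to 9 were higher and 7 to 11 lower. With a library left out, the log2 fold change of Cacnb3 ran from -0.04 to 0.02, positive without phillyrin replicate 3, and that of Kcnk2 from -0.19 to 0.02, positive without OGD/R replicate 3, neither being called in any fit. The cause of these shifts was not tested.

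Whether same-numbered libraries of the 2 groups belong together is not labelled, and the main test took them as unpaired. The deviations of same-numbered libraries from their group means correlated at 0.00278, 0.00561 and 0.00322, and each library correlated best with its own number. Correlations this small, taken over all tested genes, cannot decide whether the libraries were paired. With the replicate block 0 channel genes were higher and 4 lower, and 8 partner genes were higher and 13 lower. Replicates of a group differed by more than sampling noise, with chi-square per degree of freedom from 2.04 to 5.37. Depth limits the 10 tested channel genes under 1 CPM most, whose fold changes had standard errors of 0.38 to 0.59.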
